A study of Homo sapiens with 3 samples.

Results

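The genes described here are 10 members of the Wnt pathway, taken by name from the 58735 genes of an RNA-seq table of HGC-27 cells, an established human gastric cancer cell line. They were 1 ligand gene (WNT6), 5 inhibitor genes (DKK1, RNF43, ZNRF3, NKD1 and AXIN2), 2 genes for the transcription factors that carry the signal (LEF1 and TCF7) and 2 genes for other transcription factors that respond to it (SP5 and PROX1). All 10 were in the table, and 8 of them passed the filter on low values, a mean of at least 1 FPKM (fragments scaled to gene length in kilobases and to library size). The cells carried either a control short hairpin RNA (shControl, called Scramble in the table, labelled genotype WT) or a hairpin against USP16 (genotype shUSP16), a deubiquitinase best known for acting on histone H2A. There was 1 shControl library, and 2 libraries were labelled shUSP16 (shUSP16-1 and shUSP16-2). The labels place every library in medium with 10% fetal bovine serum and list dexamethasone, isobutylmethylxanthine and insulin for all of them, so any such treatment was shared. They do not say whether the libraries came from separate cultures or whether the numbers mark different hairpins, so the spread behind every p-value may be technical.

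In the canonical Wnt pathway, a secreted Wnt ligand binds Frizzled and LRP receptors and stops the destruction complex, built on Axin and APC, from marking beta-catenin for degradation. Beta-catenin then enters the nucleus and binds TCF and LEF proteins, which sit on DNA at Wnt target genes. Many targets are themselves inhibitors of the pathway, so AXIN2, NKD1, RNF43, ZNRF3 and DKK1 form negative feedback. AXIN2, SP5 and LEF1 are widely used as readouts of pathway activity, and in the gut epithelium the pathway maintains stem cells.

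Between 29530581 and 31187845 reads per library were recovered from the FPKM values. The targeted gene USP16 was at 6.28 FPKM in shControl, 4.29 FPKM in shUSP16-1 and 5.98 FPKM in shUSP16-2. The ratio of shUSP16-2 to shControl was 0.952 (95% interval 0.875 to 1.04), and with equal sums of reads, a second scaling used below, it was 0.876 (0.805 to 0.953). USP16 mRNA in that library was thus below shControl beyond counting error with only 1 of these scalings, and directions below rest on the labels. Of 6 epithelial markers, 0 reached 1 FPKM in any library, and their summed level was 0.206 to 0.718 FPKM, with KRT19 at 0 reads throughout. Of 7 gastric mucosa markers, 0 reached 1 FPKM, and TFF1, TFF2 and MUC5AC had 0 reads. The labelled gastric origin was thus not visible in these markers. Of 4 mesenchymal genes, VIM was at 155 to 180 FPKM and ZEB1 at 7.53 to 7.91 FPKM. The others were low, with FN1 at 0.605 to 1.05 FPKM and CDH2 at 0.0135 to 0.0621 FPKM. The summed level of 5 fibroblast-associated genes was 99.6 FPKM in shControl, 110 FPKM in shUSP16-1 and 141 FPKM in shUSP16-2. The genes did not move alike, with COL1A1 at 52.2, 71.1 and 78.4 FPKM, LUM at 32.2, 22.9 and 38.3 FPKM and DCN at 9.51, 8.71 and 12.2 FPKM in the same order. COL1A2 was at 5.23, 6.97 and 11.3 FPKM, and PDGFRB was under 1 FPKM throughout, at 0.417, 0.671 and 0.809 FPKM. The part of these 5 genes in the results below was not tested.

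Beta-catenin acts through short DNA motifs bound by TCF and LEF proteins, so the stretches before the start sites of 3 of the genes are shown to let the target genes SP5 and DKK1 be set beside the ligand gene WNT6. Each is the 250 bases before the start in RefSeq (GRCh38.p14, plus strand, 5' to 3'), and capitals mark each match to CTTTG followed by AA, AT, TA or TT, on either strand. No matches overlapped.
SP5, chr2:170715087-170715336: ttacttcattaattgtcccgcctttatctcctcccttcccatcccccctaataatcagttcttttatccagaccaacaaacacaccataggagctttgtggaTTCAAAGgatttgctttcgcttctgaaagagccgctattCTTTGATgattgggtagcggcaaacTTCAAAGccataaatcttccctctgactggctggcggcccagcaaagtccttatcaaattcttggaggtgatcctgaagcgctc
DKK1, chr10:52314031-52314280: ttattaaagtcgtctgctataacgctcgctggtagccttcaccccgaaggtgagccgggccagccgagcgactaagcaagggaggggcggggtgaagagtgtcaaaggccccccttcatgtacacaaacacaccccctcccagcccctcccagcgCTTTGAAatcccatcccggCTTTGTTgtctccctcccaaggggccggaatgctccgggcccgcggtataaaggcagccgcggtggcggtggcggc
WNT6, chr2:218859555-218859804: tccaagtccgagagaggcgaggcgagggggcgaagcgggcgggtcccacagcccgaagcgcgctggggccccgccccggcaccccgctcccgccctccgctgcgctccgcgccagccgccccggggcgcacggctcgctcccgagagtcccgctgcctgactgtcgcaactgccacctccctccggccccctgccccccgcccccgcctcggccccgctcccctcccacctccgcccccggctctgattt
The SP5 window held 3 matches, 142, 103 and 78 bases before the start counted from each match's last base. Only 43 of 35116 RefSeq windows of this length, 0.122%, held at least 3. The DKK1 window held 2 matches, and 1.21% of windows held at least 2. The WNT6 window held 0 matches, and 12.0% of all windows held at least 1. RefSeq windows were matched for 6 of the 10 genes. Those of LEF1 and RNF43 held 0 matches, and 1 of the 2 windows of TCF7 held 1. The 3 printed windows also differed in composition, with G and C at 45.6% of SP5, 62.8% of DKK1 and 79.2% of WNT6. The shares over all windows were not matched for composition, and its part in these counts was not tested. A match is a description of the letters and not a measured binding site.

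Of the 8 tested genes, PROX1 and WNT6 were the farthest from shControl in each library labelled shUSP16, both lower. PROX1 was at 0.457 and 0.462 times its shControl level and WNT6 at 0.718 and 0.564 times. TCF7 was higher, at 1.33 and 1.15 times. Among the feedback and readout genes, AXIN2, LEF1, NKD1 and ZNRF3 lay between 0.894 and 1.19 times shControl, and with equal sums of reads between 0.822 and 1.11. The other feedback and readout genes were lower, with RNF43, which did not pass the filter, at 0.615 and 0.732 times. DKK1, which did not pass it either, was at 0.836 and 0.892 times and SP5 at 0.838 and 0.841 times, within counting error of shControl with the authors' scaling. None of the 8 tested genes passed limma, which was fitted on log2(FPKM + 1) over all 13852 genes where a call needed a Benjamini-Hochberg adjusted p under 0.05. It called 0 of the 8 and 0.00% of all genes, with 2 of the 8 (WNT6 and PROX1) and 14.5% of all genes at an unadjusted p under 0.05. limma voom on the recovered reads called 1 of the 8, PROX1, and 2.51% of all genes. PROX1 had passed the filter on low values only through its shControl level. With sums of reads as totals, voom called 2 of the 8, PROX1 and WNT6, and 4.02% of all genes. All of these member calls were lower, and the share of all genes called lower was 1.04% and 3.02%.

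**Figure D1:**
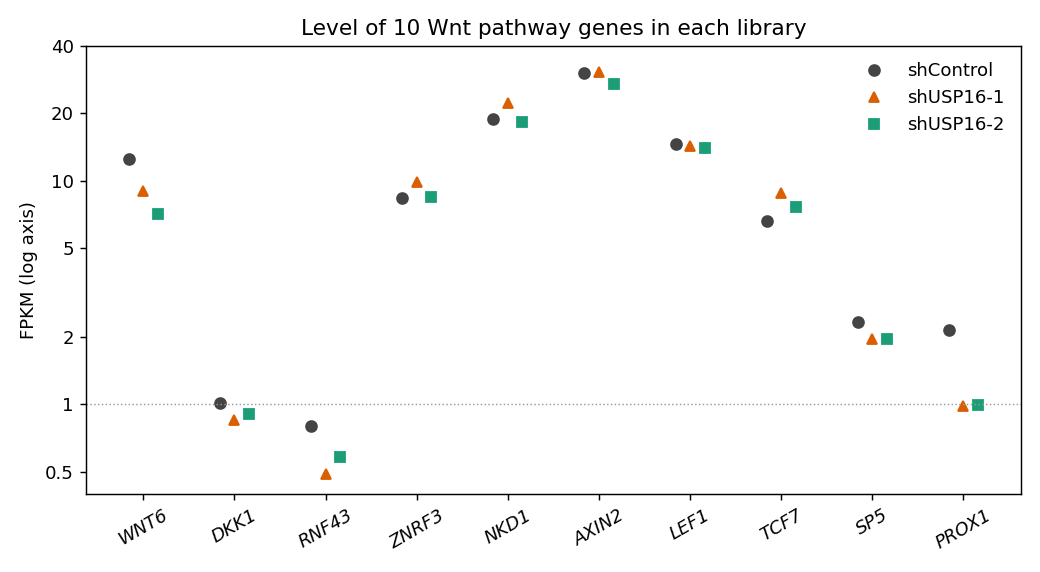
FPKM on a log axis for the 10 Wnt pathway genes (x axis) in shControl (circles), shUSP16-1 (triangles) and shUSP16-2 (squares), 1 point per library; the dotted line is 1 FPKM. AXIN2 was the highest in every library, and PROX1 moved from 2.16 FPKM in shControl to 0.986 and 0.997 FPKM in the libraries labelled shUSP16.

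As levels in FPKM, which are per length, the order in shControl was AXIN2, NKD1, LEF1, WNT6, ZNRF3, TCF7, SP5, PROX1, DKK1 and RNF43. The ranges of AXIN2 (27.0 to 30.5 FPKM), NKD1 (18.3 to 22.3 FPKM) and LEF1 (14.0 to 14.5 FPKM) over the 3 libraries did not overlap. In the libraries labelled shUSP16 the ranges of ZNRF3, TCF7 and WNT6 overlapped, so their order there is not resolved. In shControl, 7.93% of tested genes had a higher FPKM than AXIN2 and 14.6% a higher FPKM than NKD1, against 81.8% for PROX1. The deposited lengths equal the union of all annotated exons, 17425 bases for NKD1 and 10063 bases for TCF7, so the FPKM of a gene with many alternative exons is low for the transcript it uses.

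WNT6 encodes a secreted ligand and lies on chromosome 2, 218859821 to 218874233, plus strand (ENSG00000115596; GRCh38, as for all gene coordinates). It was at 12.6 FPKM in shControl (696 reads), 9.02 FPKM in shUSP16-1 (459 reads) and 7.08 FPKM in shUSP16-2 (374 reads). Both libraries labelled shUSP16 were below shControl, and shUSP16-2 was also below shUSP16-1, with a ratio of 0.785 (exact binomial 95% interval 0.683 to 0.902). Intervals here and below cover counting error only. Relative to shControl the ratio was 0.718 (0.637 to 0.809) in shUSP16-1 and 0.564 (0.496 to 0.641) in shUSP16-2. Of all tested genes, 10.0% had an equal or smaller ratio in shUSP16-1 and 5.31% in shUSP16-2. The mean of the libraries labelled shUSP16 was 8.05 ± 1.37 FPKM (SD, n = 2), and the limma difference was -0.59 with an SE of 0.17 on the log2(FPKM + 1) scale (adjusted p = 0.292). With voom the adjusted p was 0.0879 with the authors' totals and 0.0350 with sums of reads, and over all alternatives it ran from 0.0350 to 0.442.

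Of the 3 inhibitors among these genes that act outside the cell or at its membrane, DKK1 and RNF43 were near or under 1 FPKM and ZNRF3 was well above it. DKK1, a secreted protein that blocks LRP co-receptors (ENSG00000107984, chromosome 10, 52314296 to 52318042, plus strand), was at 1.02, 0.850 and 0.907 FPKM in shControl, shUSP16-1 and shUSP16-2, from 73, 56 and 62 reads. Its ratios to shControl had intervals of 0.579 to 1.20 and 0.625 to 1.27, so no difference was detectable at this depth. RNF43, a membrane ubiquitin ligase that removes Frizzled receptors (ENSG00000108375, chromosome 17, 58352500 to 58417595, minus strand), was at 0.798, 0.490 and 0.585 FPKM, from 195, 110 and 136 reads. Both libraries labelled shUSP16 were below shControl beyond counting error, with ratios of 0.615 (0.482 to 0.780) and 0.732 (0.584 to 0.916). RNF43 and DKK1 were under 1 FPKM on average and entered limma only without a filter on low values, where neither passed (adjusted p = 0.503 for RNF43 and 0.747 for DKK1). RNF43 shares 4326 of its 7505 exon bases with AC004687.2 on the same strand, which had 5, 2 and 7 reads, and 143 with SUPT4H1, which had 0 reads in every library. The rule by which the authors assigned reads from shared exons is not known here, so the level of RNF43 is uncertain. ZNRF3, the paralog of RNF43 with the same activity (ENSG00000183579, chromosome 22, 28883592 to 29057487, plus strand), was at 8.38, 9.91 and 8.48 FPKM, a contrast with RNF43 that carries the same uncertainty. It was above shControl in shUSP16-1, with a ratio of 1.18 (1.11 to 1.26), and near it in shUSP16-2, at 1.01 (0.949 to 1.08). With equal sums of reads its ratio in shUSP16-2 was 0.931 (0.873 to 0.993), so its direction there depended on the scaling. The limma difference of ZNRF3 was 0.12 with an SE of 0.14 (adjusted p = 0.734).

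The inhibitors inside the cell were the most abundant of the 10 genes. AXIN2, a scaffold of the destruction complex (ENSG00000168646, chromosome 17, 65528563 to 65561647, minus strand), measured 30.2 FPKM in shControl (5135 reads), 30.5 FPKM in shUSP16-1 (4765 reads) and 27.0 FPKM in shUSP16-2 (4370 reads). It shares 1316 of its 5226 exon bases with AC004805.1 on the same strand, which had 3, 2 and 1 reads. The control lay between the libraries labelled shUSP16, whose mean was 28.7 ± 2.50 FPKM (SD, n = 2). Its limma difference was -0.07 with an SE of 0.13 (adjusted p = 0.827). With equal sums of reads both ratios were below 1, at 0.947 (0.910 to 0.985) and 0.822 (0.790 to 0.856). NKD1, which binds Dishevelled and dampens the signal (ENSG00000140807, chromosome 16, 50548330 to 50649249, plus strand), was at 18.8, 22.3 and 18.3 FPKM in shControl, shUSP16-1 and shUSP16-2. Here too the control lay between the others, and shUSP16-2 was at 0.821 times shUSP16-1 (0.799 to 0.843), a larger gap than that of shUSP16-2 from shControl (0.973, 0.947 to 1.00). Its limma difference was 0.10 with an SE of 0.16 (adjusted p = 0.796), and it turned to -0.0034 with equal sums of reads.

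LEF1 and TCF7 encode the related HMG-box proteins through which beta-catenin reaches its target genes. LEF1 (ENSG00000138795, chromosome 4, 108047545 to 108168956, minus strand) was at 14.5, 14.3 and 14.0 FPKM in shControl, shUSP16-1 and shUSP16-2. These were the closest values of any of the 10 genes, with ratios of 0.983 (0.928 to 1.04) and 0.963 (0.910 to 1.02) and a limma difference of -0.04 with an SE of 0.12 (adjusted p = 0.902). Equal sums of reads gave ratios of 0.921 (0.870 to 0.974) and 0.886 (0.837 to 0.938). TCF7 (ENSG00000081059, chromosome 5, 134114711 to 134151865, plus strand) measured 6.62 FPKM in shControl (2170 reads), 8.84 FPKM in shUSP16-1 (2657 reads) and 7.65 FPKM in shUSP16-2 (2385 reads). Both libraries labelled shUSP16 were above shControl, with ratios of 1.33 (1.26 to 1.41) and 1.15 (1.09 to 1.22), and with equal sums of reads of 1.249 (1.18 to 1.32) and 1.06 (1.00 to 1.13). Its limma difference was 0.27 with an SE of 0.14 (adjusted p = 0.422), and 90.8% of tested genes had an equal or smaller ratio in shUSP16-1 and 68.2% in shUSP16-2.

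SP5 and PROX1 are targets of the pathway that encode transcription factors without a TCF or LEF domain. SP5, a zinc finger protein (ENSG00000204335, chromosome 2, 170715351 to 170718078, plus strand), whose upstream stretch with 3 motif matches is printed above, was at 2.33, 1.95 and 1.96 FPKM in shControl, shUSP16-1 and shUSP16-2. These rest on 156, 120 and 125 reads. The libraries labelled shUSP16 were alike and below shControl, but the intervals of their ratios reached 1.07 (0.838, 0.655 to 1.07, and 0.841, 0.660 to 1.07), so a difference was not detectable at this depth. Equal sums of reads gave upper bounds of 1.00 and 0.986. PROX1, a homeobox protein that sets lymphatic and progenitor cell identity and is a known Wnt target in intestinal tumours (ENSG00000117707, chromosome 1, 213983181 to 214041502, plus strand), measured 2.16 FPKM in shControl (627 reads). It was at 0.986 FPKM in shUSP16-1 (263 reads) and 0.997 FPKM in shUSP16-2 (276 reads). The libraries labelled shUSP16 nearly coincided, with a ratio between them of 1.01 (0.851 to 1.20), and both lay far below shControl. Relative to shControl the ratios were 0.457 (0.394 to 0.529) and 0.462 (0.400 to 0.533). In a bulk library, fewer cells with PROX1 mRNA and less PROX1 mRNA per cell cannot be told apart.

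PROX1 was the only member whose ratio to shControl was past 1.5-fold in both libraries labelled shUSP16. Of the genes tested, 6.30% reached that size, 4.26% lower and 2.04% higher. It also lay past 2-fold lower in both, as did 1.33% of genes. Only 2.36% of genes had an equal or smaller ratio in shUSP16-1 and 2.90% in shUSP16-2. limma gave a difference of -0.66 with an SE of 0.21 on the log2(FPKM + 1) scale, which understates the change of so low a gene, and PROX1 did not pass (adjusted p = 0.298). Voom on recovered reads gave -1.12 with an SE of 0.22 and called it lower (adjusted p = 0.0109), as did voom with sums of reads (adjusted p = 0.00148). Over all alternatives its adjusted p ran from 0.00148 to 0.347. PROX1 passed the filter on low values through its shControl level, since both other libraries were under 1 FPKM. PROX1-AS1, a transcript from the opposite strand that shares 171 exon bases with PROX1, had 140, 88 and 71 reads, and whether the authors counted by strand is not known here, so reads of the 2 genes cannot be told apart where they overlap. The same holds for 210 exon bases that TCF7 shares with SKP1 on the opposite strand, and for opposite-strand overlaps of 67 to 1521 exon bases at NKD1, DKK1, LEF1 and RNF43.

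**Figure D2:**
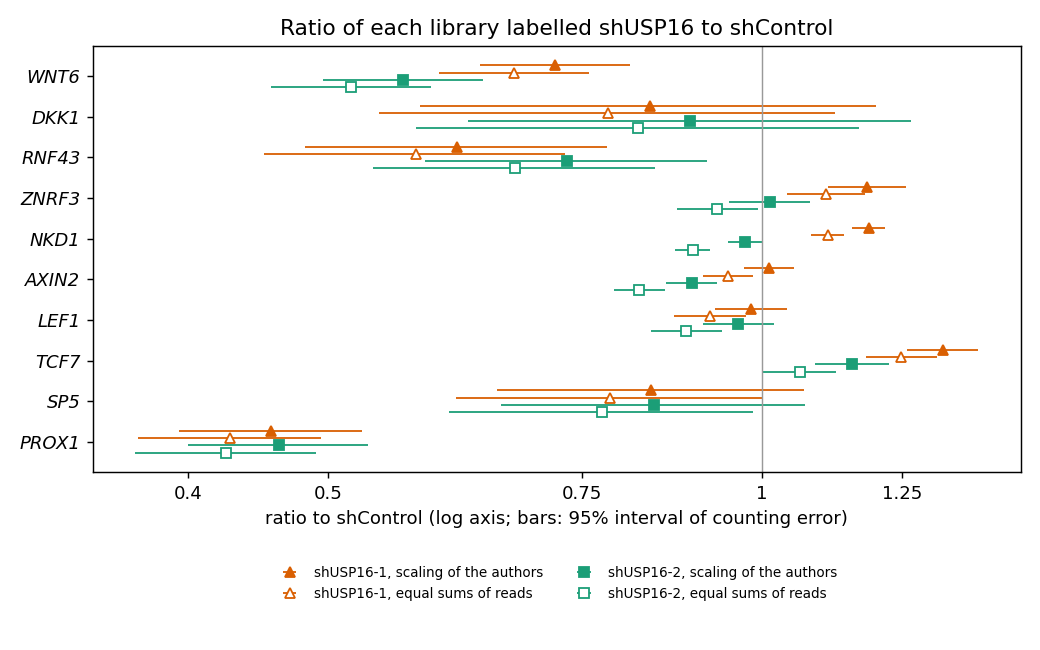
Ratio of shUSP16-1 (triangles) and shUSP16-2 (squares) to shControl for each gene on a log axis, with exact binomial 95% intervals of counting error; filled symbols use the authors' scaling and open symbols equal sums of reads. PROX1 and WNT6 lay below 1 with both scalings, while AXIN2, LEF1, NKD1 and ZNRF3 lay between 0.822 and 1.19 over both scalings, on a side that varied with library or scaling for AXIN2, NKD1 and ZNRF3.

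By direction alone, 4 of the 8 tested genes were lower in both libraries labelled shUSP16 (WNT6, LEF1, SP5 and PROX1), against 32.4% of all genes. TCF7 and ZNRF3, 2 of the 8, were higher in both, against 44.9%. With equal sums of reads 5 were lower in both, against 45.4%, and 1 was higher in both, against 31.3%. The median limma difference of the 8 was -0.05, and that of all genes tested was 0.04. Because the genes were chosen with earlier results of these data known, these shares are a description and not a test of the pathway. Both comparisons share the lone shControl library, so a deviation of that library would move both ratios of a gene the same way.

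**Figure D3:**
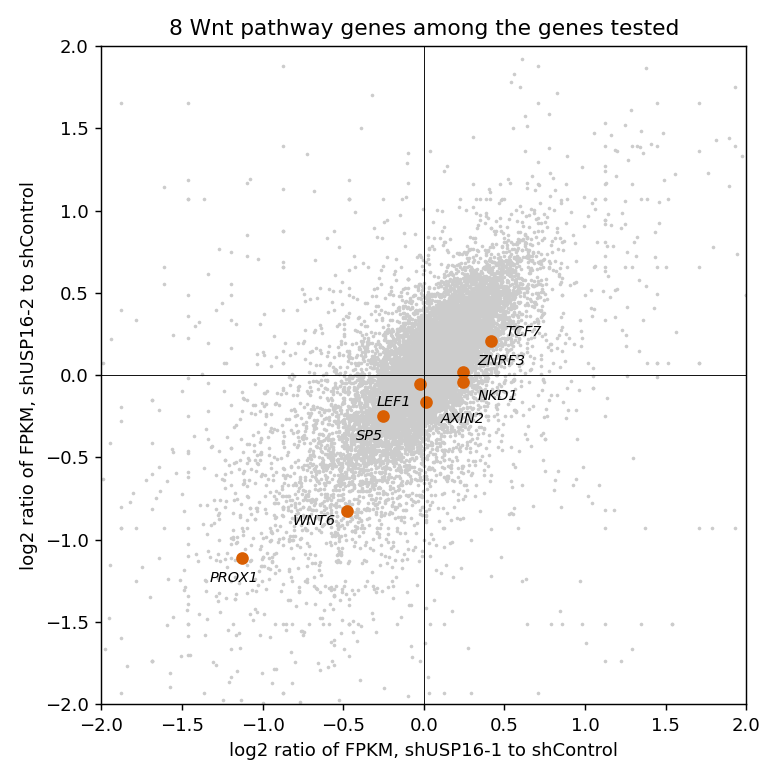
Log2 ratio of FPKM to shControl in shUSP16-1 (x axis) and shUSP16-2 (y axis) for genes with reads in all 3 libraries (grey; 13630 of 13798 lie within the axes), with the 8 tested Wnt pathway genes in orange. Both axes share the shControl library. PROX1, at -1.13 and -1.11, and WNT6, at -0.48 and -0.83, lay toward the lower left, and the other 6 lay within 0.42 of 0 on both axes.

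Few genes had the pattern of PROX1 over the 2 log2 ratios. Within a distance of 0.1 on the log2 scale lay 4 protein-coding genes, the nearest being NIPSNAP3B and PPP1R1A, against 36 for WNT6 (nearest UBE2V1 and RHPN1) and 870 for LEF1 (nearest PFDN1 and NPTXR). For TCF7 the number was 269, with MAP7D1 and JMJD6 nearest, and for AXIN2 it was 560, with CCDC142 and ACTR8 nearest. Of these genes, those farther from shControl had fewer neighbours, so their counts largely restate how far each lay from it. For the other tested genes the number was 345 for SP5, 308 for NKD1 and 455 for ZNRF3. The order was not strict there, since SP5 lay farther from shControl than NKD1 and had more neighbours. PPP1R1A, like PROX1, was above 1 FPKM in shControl only. It was at 1.84, 0.815 and 0.843 FPKM in shControl, shUSP16-1 and shUSP16-2. With 3 libraries, such likeness covers only 2 ratios with a common control.

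On the chromosome, the genes within 250 kb of WNT6 that averaged at least 1 FPKM went in several directions. Of these 7 genes, PLCD4 and STK36 were lower in both libraries labelled shUSP16, BCS1L was higher in both, and 4 were mixed. STK36, at ratios of 0.911 and 0.707, was the lowest of them in shUSP16-2. The next Wnt ligand gene, WNT10A, was read 45 times in shControl, 16 times in shUSP16-1 and 31 times in shUSP16-2. Near PROX1 only SMYD2 reached that level, at ratios of 0.735 and 1.14.

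The rest of the pathway was described from 126 further genes listed by role, of which 86 passed the filter on low values. limma called 0 of the 86, with 11 of the 86, or 12.8%, at an unadjusted p under 0.05 (9 higher and 2 lower), against 14.5% of all genes. Fitted to protein-coding genes alone, limma called 1 of the 86, the homeobox gene MSX2, and 0.434% of all such genes. Voom called MSX2 and CCND1, 2 of the 86, both higher, against 2.51% of all genes. With sums of reads it called 3, MSX2 higher and FRZB and TNFRSF19 lower, against 4.02%. These shares of the 86, 2.33% and 3.49%, were near those of all genes. Of the 86, 46 were higher and 19 lower in both libraries labelled shUSP16, and with equal sums of reads 30 and 31. The shares of the 86 were 53.5% higher and 22.1% lower, against 44.9% and 32.4% of all genes, and with equal sums of reads 34.9% and 36.0%, against 31.3% and 45.4%.

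Among the other ligands, 6 of 18 were tested, and WNT11, WNT5A and WNT10B were the most abundant. WNT5A, best known for signalling without beta-catenin, was at 6.82, 8.18 and 8.34 FPKM in shControl, shUSP16-1 and shUSP16-2 (limma adjusted p = 0.413). WNT3 was at 2.92, 2.48 and 2.63 FPKM. PORCN, the acyltransferase that Wnt proteins need for secretion, was at 2.19, 1.40 and 1.46 FPKM, with ratios to shControl of 0.638 (0.508 to 0.799) and 0.664 (0.532 to 0.827), and did not pass limma (adjusted p = 0.393). WLS, the carrier of Wnt proteins to the cell surface, was at 19.4, 18.6 and 23.3 FPKM.

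Of 16 receptor genes 14 were tested, with 5 (35.7%) higher and 4 (28.6%) lower in both and a median limma difference of 0.01. The shares of all genes were 44.9% and 32.4%. With equal sums of reads 2 (14.3%) were higher and 8 (57.1%) lower, against 31.3% and 45.4% of all genes. FZD4, a Frizzled receptor gene, was at 6.02, 4.79 and 4.45 FPKM (limma adjusted p = 0.353), and PTK7, a co-receptor, at 26.6, 30.3 and 27.9 FPKM. LGR4, which binds R-spondins, was at 18.8, 20.2 and 18.9 FPKM, whereas the intestinal stem cell gene LGR5 did not pass the filter, at 0.035, 0.013 and 0.043 FPKM.

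Other secreted and membrane inhibitors had a median limma difference of -0.09 over 8 tested genes. Of these, 3 (37.5%) were higher and 3 (37.5%) lower in both, against 44.9% and 32.4% of all genes. With equal sums of reads 1 (12.5%) was higher and 4 (50%) lower, against 31.3% and 45.4% of all genes. NOTUM, an enzyme that inactivates Wnt proteins and a known target of the pathway, was at 24.4, 26.9 and 22.1 FPKM, with the control between the others as for AXIN2. FRZB, a secreted Frizzled-related protein, was at 2.46, 0.540 and 1.54 FPKM, so the libraries labelled shUSP16 were far apart (limma adjusted p = 0.365). SOSTDC1, which binds LRP6, was at 11.9, 7.00 and 9.91 FPKM (limma adjusted p = 0.384).

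Of 21 Dishevelled and destruction complex genes, 14 (66.7%) were higher and 2 (9.52%) lower in both, against 44.9% and 32.4% of all genes. Their median limma difference was 0.16, against 0.04 for all genes. With equal sums of reads these counts were 8 (38.1%) and 5 (23.8%), against 31.3% and 45.4% of all genes. CTNNB1, encoding beta-catenin, was at 12.8, 14.9 and 14.7 FPKM, APC at 3.70, 4.22 and 4.49 FPKM and the kinase gene GSK3B at 11.2, 11.7 and 9.55 FPKM. AXIN1, the constitutive paralog of AXIN2, was at 5.13, 7.24 and 6.59 FPKM (limma adjusted p = 0.324). DVL3, a Dishevelled gene, was at 20.9, 16.6 and 16.7 FPKM (limma adjusted p = 0.337). NKD2, the paralog of NKD1, was the highest of the list, at 76.0, 81.9 and 71.7 FPKM. Among nuclear factors 9 of 16 (56.25%) were higher and 3 (18.75%) lower in both, with a median limma difference of 0.06. With equal sums of reads 7 (43.75%) were higher and 6 (37.5%) lower, to be read against the same shares of all genes. The coactivator gene EP300 was at 8.51, 11.9 and 10.8 FPKM (limma adjusted p = 0.320).

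Other genes known as Wnt targets, 18 of 25 tested, included 11 (61.1%) that were higher and 4 (22.2%) that were lower in both. The shares of all genes were 44.9% and 32.4%. Their median limma difference was 0.19, against 0.04 for all genes. With equal sums of reads 10 (55.6%) were higher and 5 (27.8%) lower, against 31.3% and 45.4% of all genes. MSX2, which also responds to BMP signals, was at 19.1 FPKM in shControl and 38.7 and 37.2 FPKM in shUSP16-1 and shUSP16-2, with ratios of 2.03 (1.90 to 2.16) and 1.95 (1.83 to 2.08). limma over all genes did not call it (adjusted p = 0.192), while limma on protein-coding genes (adjusted p = 0.0137) and voom (adjusted p = 0.00107) did. CCND1, encoding cyclin D1, was at 33.8, 51.0 and 47.2 FPKM, with voom giving an adjusted p of 0.0324 with the authors' totals and 0.0555 with sums of reads. MYC was at 114, 143 and 149 FPKM (limma adjusted p = 0.292). TNFRSF19, a receptor gene of the tumour necrosis factor receptor family, was at 3.94, 1.76 and 2.74 FPKM, in the same direction as PROX1. MSX2, CCND1 and MYC, which respond to many signals, lay on the other side of shControl from PROX1 and WNT6. The cause of either direction was not tested.

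**Figure D4:**
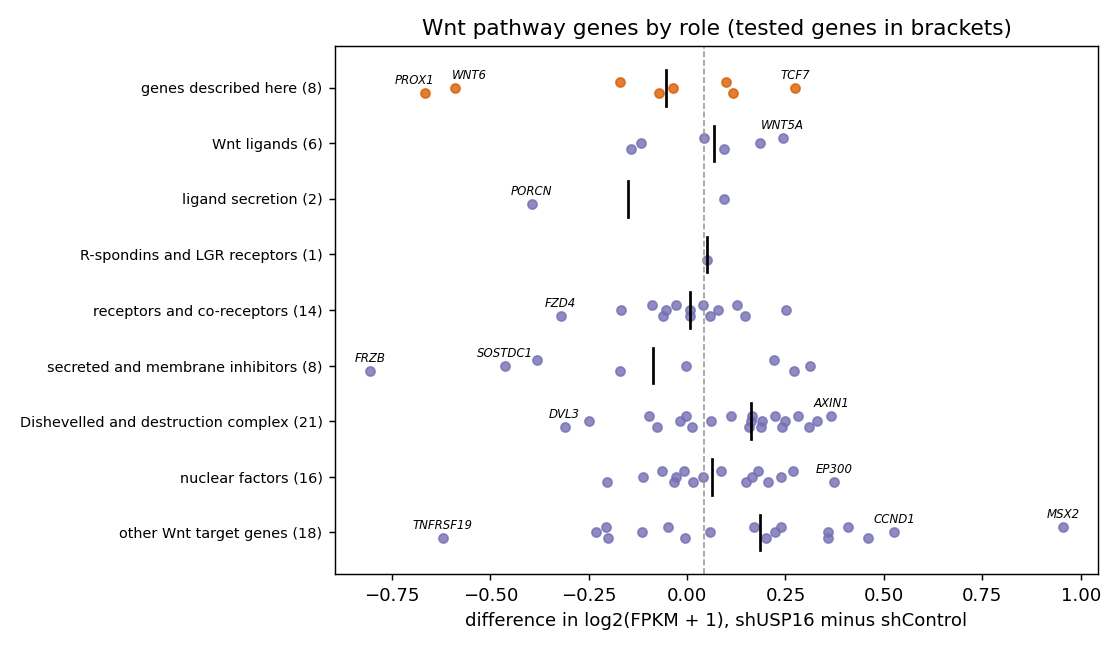
Difference in log2(FPKM + 1), shUSP16 minus shControl, from limma for the 8 tested genes described here (orange) and for 86 other Wnt pathway genes by role (purple), 1 point per gene; black bars are list medians and the dashed line is the median of all genes tested. PROX1 and WNT6 lay at -0.66 and -0.59, and MSX2 at 0.96 was the highest point.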

How the data were processed

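RNA-seq libraries of HGC-27 cells, 1 shControl and 2 labelled shUSP16, were grouped by their titles. The authors deposited FPKM values for 58735 genes with gene length, coordinates and biotype, per the file headers. For the aligner, counter and strand setting, the sources used here give nothing. GRCm38 and mm10 stand in the submitters' processing notes, yet every gene ID and coordinate in the table is that of human GENCODE 29 on GRCh38. FPKM times length was a whole multiple of 1 read for 100% of values above 0 (tolerance 0.01 reads). The totals implied by FPKM were 1.08, 1.01 and 0.994 times the recovered sums, so a scaling factor had been applied, and equal sums of reads were used as a second scaling.

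Groups were compared in limma 3.58.1 (R 4.3.3) with a variance trend on log2(FPKM + 1), over the 13852 genes averaging 1 FPKM or more. Only the pair of libraries labelled shUSP16 informs the spread (1 residual degree of freedom), which the control is taken to share. The fits were tested on simulated data. There the control was made to vary like the other libraries, so that assumption itself was not tested. Ratios of reads have exact binomial 95% intervals. The genes, lists, rules and alternatives were chosen with earlier results of these data known. CTNNB1, APC, GSK3B, MYC, CCND1, LGR5 and USP16 were named besides the 10 genes. From each list a rule picked up to 3 genes by the largest change of the weaker library and up to 3 by mean FPKM. For each tested gene it also picked the 2 nearest by Euclidean distance. Not all genes picked by the rule are printed above. WNT10A, the neighbours on the chromosome and the markers were named outside this rule. Python 3.11.15, pandas 2.3.3 and scipy 1.17.1 were used.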

Additional observations from a re-analysis of the deposited data

How the results depend on the processing

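Settings were another pseudocount (0.1), no filter or a mean of at least 5 FPKM, protein-coding genes only, equal sums of reads, median-ratio size factors, no variance trend, voom on recovered reads and leaving out each library labelled shUSP16; voom with sums of reads was added after seeing the data. Of 86 recomputed differences of single genes, 79 kept their direction and, where a p-value was fitted, their side of the threshold. Another 3 passed it (PROX1 in both voom fits, WNT6 in voom with sums of reads) and 4 turned. Differences with a library left out have no p-value, so these could only keep or turn their direction. NKD1 turned to -0.0034 with equal sums of reads and -0.0047 in voom with sums of reads, and ran from -0.037 to 0.23 when a library labelled shUSP16 was left out; AXIN2 ran from -0.16 to 0.015. WNT6 ran from -0.75 to -0.44 and PROX1 from -0.67 to -0.66 in the same way.

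limma called 0 genes in all, 13 with a mean of at least 5 FPKM and 48 among protein-coding genes; voom called 348, and 557 with sums of reads. Of the 8 tested members, voom called 1, and 2 with sums of reads. Of the 86 other pathway genes tested, limma on protein-coding genes called 1, voom 2, and 3 with sums of reads. The shares of all genes called were 0.434% with limma on protein-coding genes, 2.51% with voom and 4.02% with sums of reads. The count of members at least 1.5-fold from shControl in both, 1, was 0 with a mean of at least 5 FPKM, which leaves PROX1 out, 2 at a lower fold threshold, and 1 to 2 when a library was left out, WNT6 passing in shUSP16-2 alone. Members higher in both, 2, came to 1 with equal sums of reads and 2 to 4 when a library was left out. Members lower in both, 4, came to 5 with equal sums of reads and 6 with no filter on low values. The count was 2 with a mean of at least 5 FPKM and 4 to 6 when a library was left out. The cause of the larger counts with voom was not tested. No paired analysis was possible because there is 1 control library, whose label carries no number. With 56 to 73 reads for DKK1 and 120 to 156 for SP5, a difference was not detectable with the authors' scaling.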
